A study of Mus musculus with 8 samples.

Results

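The tripartite motif (TRIM) genes encode a large family of proteins, most of which are ubiquitin ligases. Of the 21080 gene symbols quantified in mouse macrophages, 59 carry a name made of Trim and a number, with or without a letter. These 59 were taken as the members by their name alone, without use of any measured value. A mean read coverage of at least 0.5 over all samples was reached by 51 of them, and these were tested together with 16233 other genes. Below that level were 8 members, namely Trim9, Trim10, Trim31, Trim43a, Trim50, Trim60, Trim71 and Trim75, of which 2 (Trim60 and Trim75) were listed at 0 in every sample. Of the 51, Trim15, Trim38 and Trim72 reached the minimum only through the group in which each was highest (WT at 4 h, cKO at 0 h and WT at 4 h), so a difference of that group from others was bound up with their being tested.

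RNA-seq was done on bone marrow-derived macrophages (BMDMs), which are grown in culture from marrow precursors, of C57BL/6 mice. In Nudt21-cKO mice (Nudt21 fl/fl with LysM-Cre, hereafter cKO) loxP sites flank exons 2 and 3 of Nudt21, and Cre is driven by the LysM promoter, which is active in macrophages and other myeloid cells. WT mice were sex-matched littermates that also carried LysM-Cre, so that Cre was shared by all groups. Cells of both genotypes were taken without stimulation (0 h) or after a night in IFNγ and then 4 h in LPS, each given at 50 ng/ml (4 h). Each of the 4 groups had 2 samples, and each sample pooled BMDMs of 2 mice, so p-values measure the spread between such pools. The ages of the mice are not given in the sources used here.

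Most TRIM proteins have a RING domain, 1 or more B-boxes and a coiled coil, though some lack the RING. They differ in the domain at their C-terminal end, which often is a PRY-SPRY domain that binds the target. Many are induced by interferon in macrophages and act against viruses or tune the sensing of viral RNA and bacterial products, while others regulate chromatin, microtubules or membranes. NUDT21 is the RNA-binding subunit of cleavage factor Im, which recognises UGUA upstream of poly(A) sites and steers the choice of the site at which a transcript ends.

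Values are the mean coverage per base of a gene, which allows levels to be compared between genes of different length. Summed over genes the coverage ran from 14950347 to 17954882 per sample, but the median gene was covered less at 4 h than at 0 h, by 1.24 on the log2 scale in WT and 1.03 in cKO (log2 changes of -1.24 and -1.03), and in cKO it was 0.09 higher than in WT at 0 h and 0.28 higher at 4 h. Each sample was therefore multiplied by a factor between 0.587 and 1.95 that gave all samples the same median, and the result is called scaled coverage. All changes below are log2 fold changes of scaled coverage + 0.1 from 1 limma fit over the 8 samples, and a call needs a change of more than 1.5-fold together with a Benjamini-Hochberg adjusted p below 0.05 over the 16284 genes tested. Nudt21 had a scaled coverage of 465 and 419 in WT against 100 and 101 in cKO at 0 h, and of 1068 and 953 against 197 and 164 at 4 h. It was 4.38-fold lower in cKO at 0 h (log2 fold change -2.13, SE 0.12, adjusted p = 0.000674) and 5.62-fold lower at 4 h (-2.49, SE 0.12, adjusted p = 0.000163), in the direction of the labels. The summed deposited coverage of 7 macrophage markers was 50581 to 130748 per sample, while the sums of T cell, B cell, neutrophil, dendritic cell, mast cell and fibroblast markers reached at most 198, 4.36, 717, 60.9, 6.74 and 203. Of these sums, that of the mast cell list rests on 1 of its 3 genes, and their part in the results below was not tested. Single markers differed between genotypes. At 0 h 3 of the 7 macrophage markers were called lower in cKO (Adgre1, Csf1r and Fcgr1, with log2 fold changes as defined above of -0.75, -0.65 and -0.99) and 1 higher (Cd68, 0.60), and at 4 h 2 were lower (Adgre1 and Fcgr1, -0.82 and -0.65) and 1 higher (Cd68, 0.71). Of 3 neutrophil markers Mpo (-0.73) was called lower at 4 h, and of 3 dendritic cell markers Xcr1 (-3.54). The other markers of both lists were not called at 4 h and did not all go the same way. Changes of the neutrophil markers ran from that of Mpo to 2.425, with a median of -0.505. Those of the dendritic cell markers ran from that of Xcr1 to 1.18, with a median of 0.50. In such bulk samples fewer cells of a type and less RNA per cell cannot be told apart. The times were deposited in separate tables, so a difference in processing between the tables and an effect of stimulation cannot be told apart. For single genes the smallest p of an exact permutation test (two-sided, 2 samples a group) is 0.333, which is why the model over all genes was used.

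By mean deposited coverage over the 8 samples the highest members were Trim30a (4544), Trim25 (3536), Trim30c (3109), Trim30d (2102) and Trim21 (1375). Trim30a, Trim30c and Trim30d belong to a block of genes on chromosome 7 that includes the mouse relatives of the retrovirus restriction factor TRIM5. Trim25 modifies the RNA sensor RIG-I with ubiquitin, and Trim21 is a cytosolic receptor for antibody bound to virus. At 0 h the order was different, since Trim28, the corepressor also known as KAP1, had a scaled coverage of 1183 and 1189 in WT and was above Trim25 (961 and 979) and Trim30a (531 and 611) there.

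**Figure D1:**
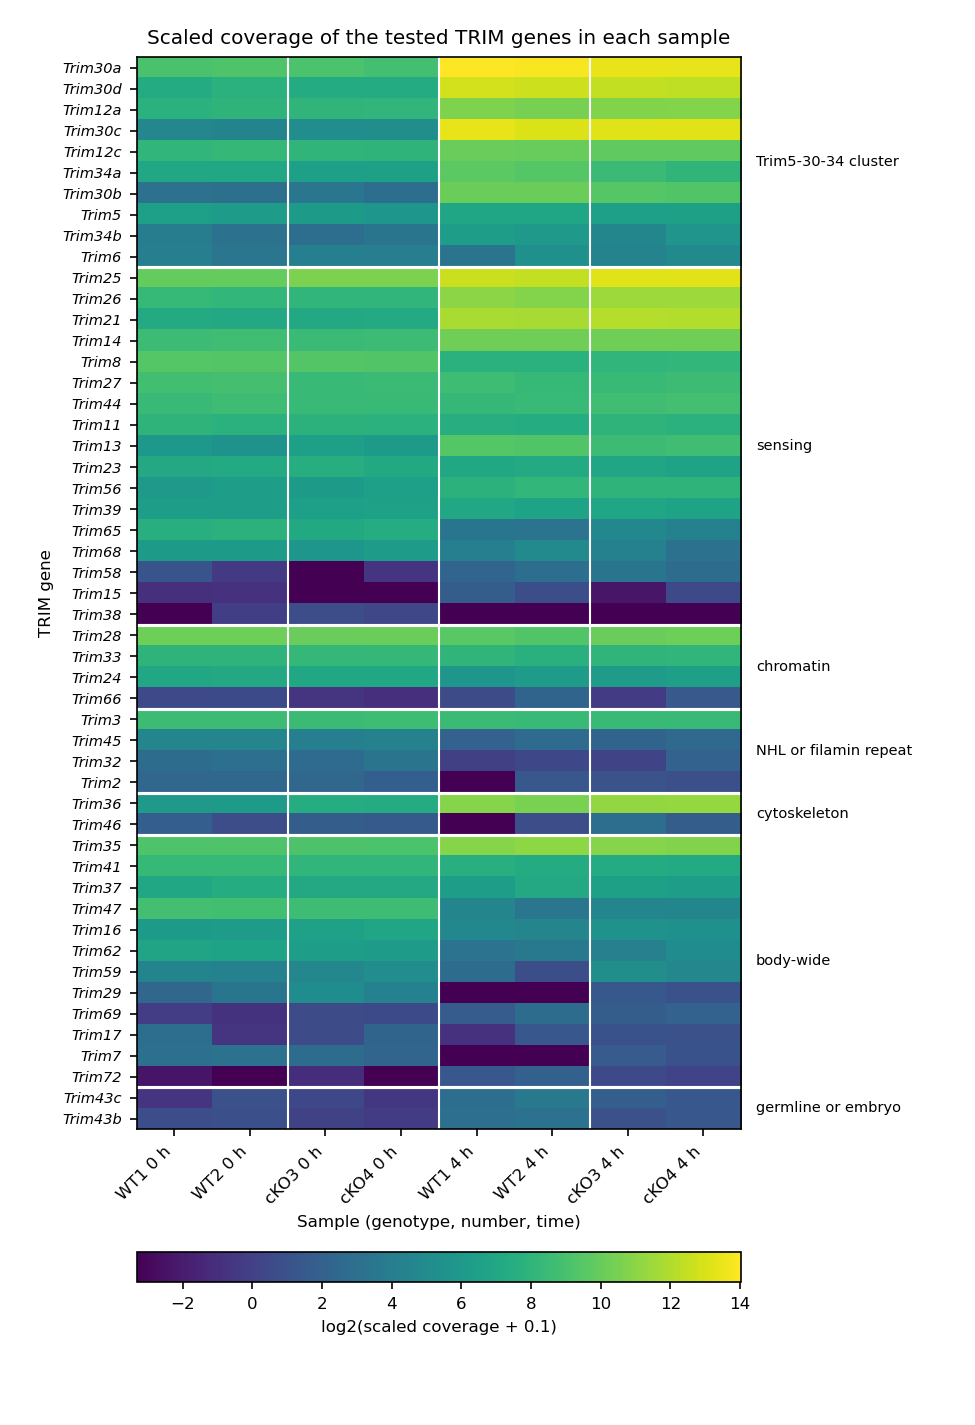
Scaled coverage of the 51 tested TRIM genes (rows, grouped by role and ordered by mean level) in each of the 8 samples (columns, named by genotype, sample number and time), with the colour giving log2(scaled coverage + 0.1). Trim30a, Trim30c, Trim30d, Trim25 and Trim21 are the brightest rows at 4 h in both genotypes, and Trim7 and Trim29 are at 0 in both WT samples at 4 h.

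The block on chromosome 7 holds Trim5, Trim6, Trim12a, Trim12c, Trim30a, Trim30b, Trim30c, Trim30d, Trim34a and Trim34b, which lie between 104218793 and 104507849 on GRCm38 and were all tested. Interferons act through factors that bind the interferon-stimulated response element (ISRE), and its core, GAAA followed after any 2 bases by GAAA on either strand, was looked for from 250 bases before to 50 bases after each annotated start (RefSeq, GRCm38.p6). A promoter was found for 45 of the 59 members and 9 of the 45 held these letters, against 3.99% of 27025 genes. Shown here are the stretches of those 8 of the 9 members whose coverage is described below (the other is Trim2), because those of Trim12a, Trim5 and Trim12c, and those of Trim30a and Trim30d, are alike in nearly all letters. The capitals mark the match, and each is written 5′ to 3′ on the strand of the gene.
Trim12a (chr7:104315466-104315495, gene on the minus strand): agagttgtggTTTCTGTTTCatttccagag
Trim5 (chr7:104288136-104288165, minus): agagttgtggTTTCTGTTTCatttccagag
Trim12c (chr7:104353359-104353388, minus): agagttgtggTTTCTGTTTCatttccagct
Trim30a (chr7:104465210-104465239, minus): agttctttagTTTCTTTTTCtcagttcctg
Trim30d (chr7:104507871-104507900, minus): agttctttagTTTCTTTTTCtcagttcctg
Trim34a (chr7:104244457-104244486, plus): tggtttggagTTTCAGTTTCttttctctgc
Trim21 (chr7:102565444-102565473, minus): agaggaaactGAAAGTGAAAtttggactgc
Trim26 (chr17:36836976-36837005, plus): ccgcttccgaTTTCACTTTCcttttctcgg
The stretches of Trim12a and Trim5 were identical, as were those of Trim30a and Trim30d. Trim21, Trim26 and Trim30a held a second match, which in Trim21 and Trim26 overlaps the one shown. The other interferon element, the GAS (TTCNNNGAA), was present in 6 of the 45 members against 9.55% of genes, and the one in the promoter of Trim30c lay at chr7:104400822-104400851 (minus), reading ccgtgactaaaTTCTTAGAAgcttagtgac. Overlap of the 2 motifs with each other was allowed, and a match of letters does not show binding.

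The first question was how the family responded to IFNγ and LPS in WT BMDMs. Here 12 members rose and 14 fell under each of 4 ways of scaling the samples (to the same median, as deposited, to the same sum, and by quantile normalization). The risers were Trim12a, Trim13, Trim21, Trim25, Trim26, Trim30a, Trim30b, Trim30c, Trim30d, Trim34a, Trim36 and Trim72 (11 without Trim72, which was tested only because of its values in WT at 4 h), and the members that fell were Trim7, Trim8, Trim16, Trim24, Trim28, Trim29, Trim32, Trim41, Trim45, Trim47, Trim59, Trim62, Trim65 and Trim68. They make up 23.5% and 27.5% of the 51 members, against 11.6% and 20% of all genes tested. On the median scale alone 20 members were called higher and 14 lower (33.5% and 21.9% of all genes), and on the deposited scale 12 were called higher and 25 lower (11.8% and 55.6% of all genes). The median member changed by 0.54 and the median gene by 0.14 on the first of these scales, and by -0.92 and -1.24 on the second.

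The 4 Trim30 genes rose. Trim30c had a scaled coverage of 25.6 and 22.6 in WT at 0 h and of 11394 and 9008 at 4 h, a 420-fold rise (log2 fold change 8.71, SE 0.12, adjusted p = 2.84e-08). In cKO it went from 37.0 and 37.7 to 9209 and 9582, or 251-fold (7.97, SE 0.12, adjusted p = 3.76e-08). In both genotypes this was the largest rise among the members. On the deposited scale the log2 fold change of Trim30c was 7.25 in WT and 6.77 in cKO. Trim30b, lower than its neighbours at 0 h with 8.58 and 8.43, reached 1096 in both WT samples at 4 h, which is 127-fold (6.99, SE 0.18). Trim30d moved from 161 and 216 to 7495 and 6632 in WT (5.24, SE 0.14). Trim30a, whose protein limits NF-κB signalling by acting on TAB2 and TAB3, rose from 531 and 611 to 16719 and 14623 (4.78, SE 0.12). At 4 h the level of Trim30a was thus above that of any other member in both WT samples. On the deposited scale the log2 fold changes in WT were 5.53 for Trim30b, 3.77 for Trim30d and 3.31 for Trim30a.

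The rest of the block was split. Trim12a, from 220 and 249 to 1643 and 1446 in WT, rose 6.58-fold (2.72, SE 0.10), and Trim34a, from 132 and 131 to 812 and 686, rose 5.67-fold (2.50, SE 0.17). Of Trim34a, 87.2% of the transcript is nearly identical to Trim34b or Gm47248, and all of the transcript of Trim34b has such a copy in Trim34a, so the division of reads between them is uncertain. Nearly identical stretches of other genes also covered 24.3% of the transcript of Trim72, 24% of Trim5, 16.3% of Trim7, 11.1% of Trim12c and 10.4% of Trim43b, whose values carry the same doubt to that extent. Trim12c and Trim34b were called higher on the median scale (1.88 and 2.57, SE 0.09 and 0.45) but on the deposited scale they had log2 fold changes of 0.41 and 1.11 and were not called. Trim5 and Trim6 both had a log2 fold change of 0.54 (SE 0.17 and 0.63), and on the deposited scale Trim5 was called lower (-0.92). The stretch with the response element that Trim5 shares letter for letter with Trim12a was thus found beside a gene that rose under every scaling and beside one that did not. Of the 11 risers with a promoter (with Trim72 and without Trim36, for which none was found) 6 held the element. Of the 10 members with a promoter that fell 0 held it, and of the 17 other tested members with a promoter 3 held it. Trim30a and Trim30d, whose stretches are identical, are both among the 6. The share of the element among all genes that rose or fell was not counted, so these counts are a description.

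Among the members known from the sensing of viral RNA, DNA or bacterial products 4 of 17 rose and 3 fell in WT under every scaling. By that rule 11.6% of all genes tested rose and 20% fell. Trim21 went from 152 and 145 to 3560 and 3499, or 23.7-fold (4.57, SE 0.08, adjusted p = 5.03e-08). Trim25 went from 961 and 979 to 6402 and 5467 (2.61, SE 0.09), and Trim26, a nuclear ligase linked to the turnover of IRF3, from 323 and 287 to 2092 and 1825 (2.68, SE 0.09). Trim13, which sits in the membrane of the endoplasmic reticulum, rose 12.5-fold from 59.8 and 48.2 to 700 and 642 (3.64, SE 0.16). On the deposited scale the log2 fold changes were 3.10 for Trim21, 1.14 for Trim25, 1.22 for Trim26 and 2.17 for Trim13. The other way went Trim65, a ligase for the RNA sensor MDA5, from 191 and 223 to 10.5 and 9.60, a level 20.3-fold lower (-4.35, SE 0.23, adjusted p = 2.7e-06). Trim8 and Trim68 were 3.12-fold and 3.005-fold lower. The WT samples of 0 h and 4 h did not overlap, on the median or the deposited scale, for any of Trim13, Trim21, Trim25, Trim26 and Trim65. On the median scale this was so for 43 of the 51 members (84.3%). The share of all genes was not counted, so the lack of overlap is only a description.

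Outside sensing and the block on chromosome 7 Trim36, a microtubule-binding ligase, rose from 63.4 and 69.5 to 1889 and 1505 (4.66, SE 0.12, adjusted p = 1.32e-07). Trim72, the membrane repair protein MG53 of muscle, had 0.0968 and 0 at 0 h and 2.55 and 3.97 at 4 h, close to the lowest level tested, and as it passed the minimum through the latter samples its call is given as a description. Of the members with body-wide or other roles 7 of 12 fell under every scaling, against 20% of all genes tested. Trim47 dropped from 453 and 430 to 23.8 and 11.3, or 26.7-fold (-4.74, SE 0.31), and Trim62, a ligase for CARD9, from 114 and 106 to 9.49 and 12.9 (-3.30, SE 0.32). Trim59, which is anchored in membranes, went from 22.2 and 20.1 to 7.05 and 1.72 (-2.56, SE 0.62, adjusted p = 0.00861), with adjusted p-values up to 0.0621 without one or the other WT sample of 0 h. Trim32 and Trim68 also lost their calls without either WT sample of 0 h or WT replicate 1 of 4 h. Trim7, named for its binding of glycogenin, was listed at 8.11 and 8.69 at 0 h and at 0 in both samples at 4 h, and Trim29 at 5.25 and 10.4 and then at 0 in both. Their falls were called (adjusted p = 6.33e-05 and 9.22e-05), and no fold is given against a group at 0. Trim47 and Trim65 lie side by side on chromosome 11 with overlapping gene bounds (116105752 to 116127210 and 116121846 to 116131128, both on the minus strand). Of 4 chromatin regulators 0 were called higher on the median scale (33.5% of all genes) and 2 fell under every scaling (20% of all genes). None had an unadjusted p below 0.05 and a higher value, which 43.1% of the 51 members had. The share of all genes was not counted by that rule. Trim28 went from 1183 and 1189 to 761 and 651, a 1.68-fold fall (-0.75, SE 0.09, adjusted p = 0.000304), and Trim24 was 2.15-fold lower.

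In cKO BMDMs 11 members rose and 12 fell under every scaling (12.7% and 20% of all genes), with 17 and 12 on the median scale (31.4% and 21.3%) and 11 and 23 on the deposited scale (13.3% and 51.4%). Shared with WT were 10 of the 12 risers of WT, which make up 10 of the 11 of cKO, and 10 of the 14 members that fell in WT, or 10 of the 12 of cKO. Missing from the cKO risers were Trim34a and Trim72, and added was Trim58, which had 0 and 0.499 at 0 h and 10.7 and 6.96 at 4 h. Missing from those that fell were Trim7, Trim28, Trim32 and Trim59, and added were Trim37 and Trim38. Trim38 was listed at 0 in all 4 samples of 4 h and was tested only because of its values in cKO at 0 h, so that its call is a description and 11 members fell without it. The call of Trim37 was lost in 6 of the 8 fits that leave out 1 sample (all but those without a WT sample of 4 h), that of Trim38 in 4 (without any cKO sample), and that of Trim24 in 3 (without either cKO sample of 0 h or cKO replicate 3 of 4 h). The difference between the genotypes in these responses was tested as an interaction.

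**Figure D2:**
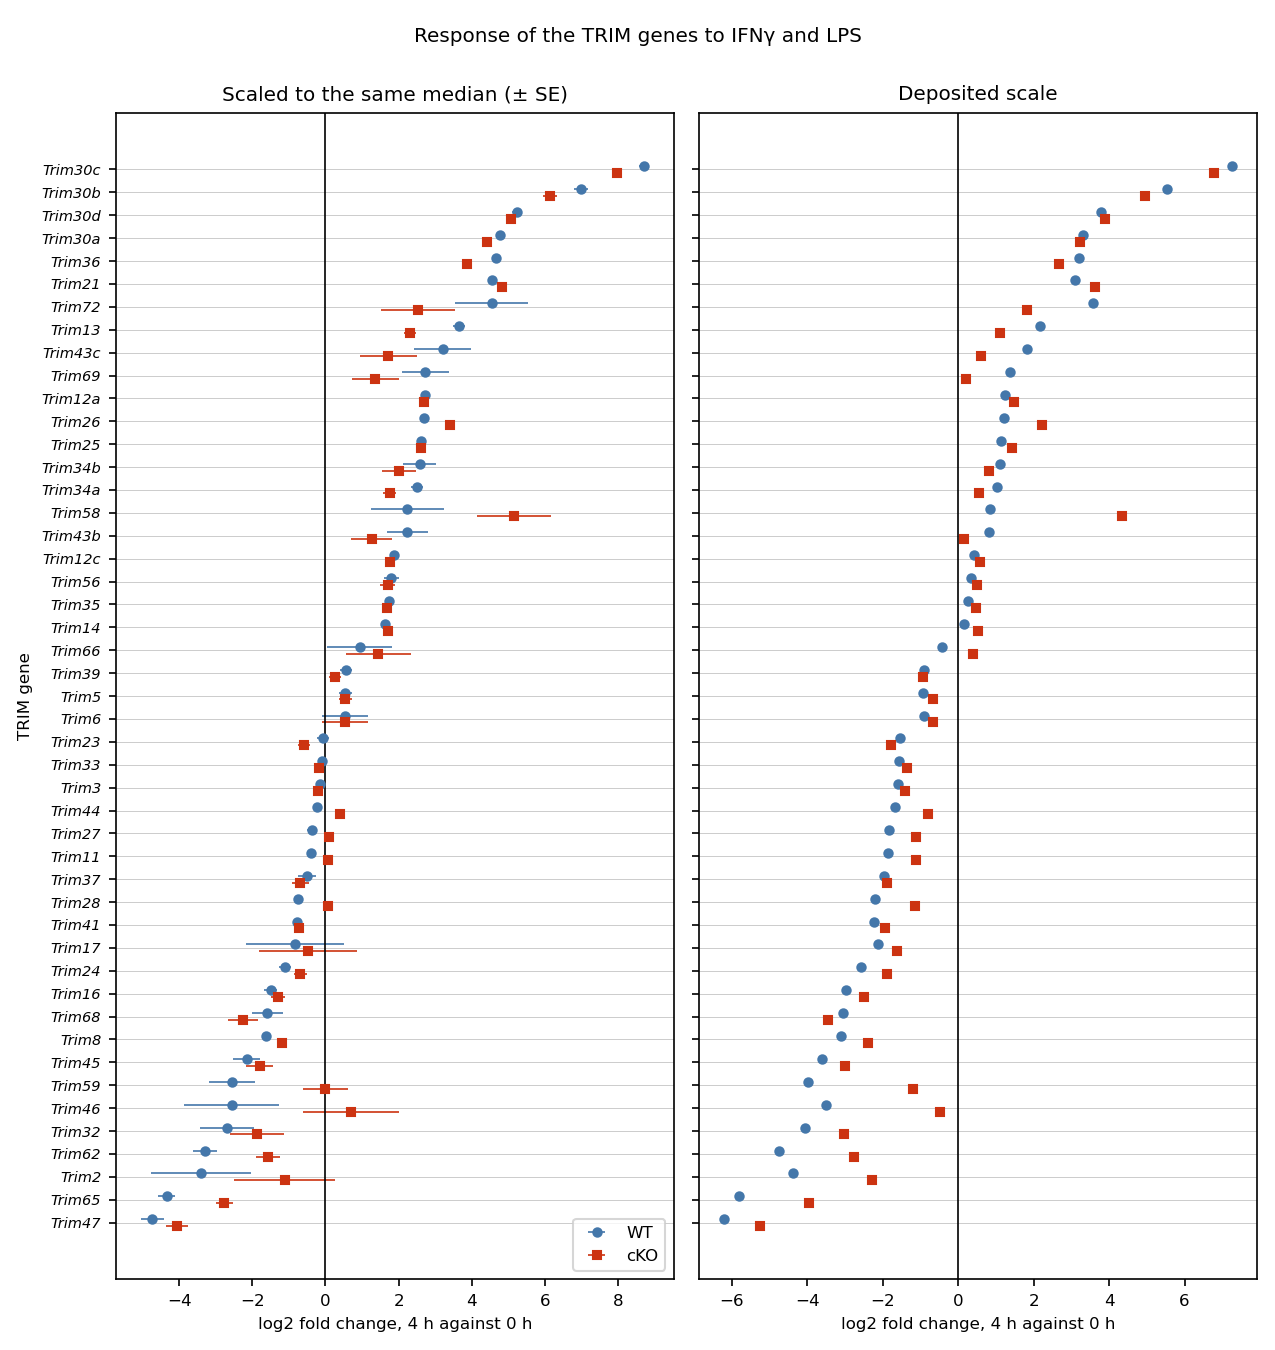
Log2 fold change from 0 h to 4 h of 47 tested TRIM genes in WT (blue circles) and cKO (red squares), on scaled coverage with bars of ± 1 SE (left) and on the deposited scale without bars (right). Trim7, Trim15, Trim29 and Trim38 are left out because a group was listed at 0. Trim30c and Trim30b are farthest to the right and Trim47 and Trim65 farthest to the left in WT on both scales, and the middle of the family lies below 0 only on the deposited scale.

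The second question was what the loss of Nudt21 did to the family without stimulation. At 0 h 3 members were higher in cKO and 0 lower, against 3.41% and 2.97% of all genes tested, so the share of members called was 5.88% in all. By the unadjusted p below 0.05 of the same limma fit 6 members were higher and 4 lower (12.3% and 11.5% of all genes), and with a fold change above 1.5 in addition, the rule of the study, 4 were higher and 1 (Trim58) lower (5.7% and 5.64% of all genes). The median member had a log2 fold change of -0.10 and the median gene of 0. Trim36 had a scaled coverage of 63.4 and 69.5 in WT against 169 and 162 in cKO, which is 2.49-fold higher (1.31, SE 0.12, adjusted p = 0.00227). Trim25 had 961 and 979 against 1586 and 1525, or 1.60-fold (0.68, SE 0.09, adjusted p = 0.00757). Trim30c had 25.6 and 22.6 against 37.0 and 37.7, or 1.55-fold (0.63, SE 0.12, adjusted p = 0.0239). All 3 were called under each of the 4 scalings (2.86% of all genes higher and 2.1% lower by that count), and in none did the genotypes overlap. Genotypes that do not overlap were common, however, with 33 of the 51 members (64.7%) and 56.8% of all genes at 0 h, whether called or not. Leaving out one sample at a time, the adjusted p of Trim36 reached 0.05003 without cKO replicate 4 of 0 h and that of Trim25 went up to 0.0764, with the call lost without WT replicate 1, cKO replicate 3 or cKO replicate 4 of 0 h. Trim30c was not called in 6 of the 8 such fits, without any 1 of the 4 samples of 0 h or the 2 of cKO at 4 h (adjusted p up to 0.156), nor in a fit of the 4 samples of 0 h alone or with a prior variance without trend.

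Trim13 (59.8 and 48.2 in WT, 90.7 and 70.6 in cKO at 0 h) was not called, with a log2 fold change of 0.58 (SE 0.16, adjusted p = 0.0762), but passed on the deposited scale. Trim29 had 5.25 and 10.4 in WT and 34.6 and 19.96 in cKO, which do not overlap, yet its log2 fold change of 1.81 had an SE of 0.63 (adjusted p = 0.132). In the block on chromosome 7 the changes at 0 h ran from -0.54 (Trim34a, SE 0.17, adjusted p = 0.1) to that of Trim30c.

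At 4 h 8 members were higher and 4 lower in cKO, against 7.66% and 7.87% of all genes tested, which is 15.7% and 7.84% of the members. All 8 that were higher (Trim7, Trim16, Trim25, Trim28, Trim29, Trim59, Trim62 and Trim65) were called under each of the 4 scalings, and of the 4 that were lower (Trim13, Trim30b, Trim34a and Trim43b) this holds for Trim34a (6.37% and 2.95% of all genes). On the deposited scale, on which the median gene was 0.28 higher in cKO, the split was 16 higher and 1 lower (17.4% and 2.97% of all genes). In a fit of the 4 samples compared alone 4 were higher and 3 lower, with the calls of Trim7, Trim16, Trim29, Trim43b, Trim62 and Trim65 lost and Trim26 added. With a prior variance without trend 7 were higher and 2 lower, with Trim13, Trim30b and Trim62 lost. The shares of all genes called in these fits are not given here, so the lost calls cannot be set against those of other genes. By the rule of the study on scaled values 9 were higher and 4 lower (10.2% and 10.5% of all genes). The median member changed by 0.01 and the median gene by -0.01, or by 0.36 and 0.28 on the deposited scale.

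Trim25 was the most abundant of these. Its scaled coverage was 6402 and 5467 in WT and 9214 and 9888 in cKO, 1.61-fold higher in the latter (0.69, SE 0.09, adjusted p = 0.00295). It was the single member called higher at both times, and its fold at 4 h was close to the 1.60-fold at 0 h. Without WT replicate 2 of 4 h its log2 fold change was 0.57 and below the limit of 1.5-fold. Trim28, with 761 and 651 in WT and 1079 and 1198 in cKO, was 1.61-fold higher too (0.69, SE 0.09, adjusted p = 0.00315), and it likewise fell just short of the fold limit without WT replicate 2 of 4 h (0.57). Trim65 had 10.5 and 9.60 against 27.6 and 19.3, or 2.29-fold (1.19, SE 0.23, adjusted p = 0.0101), and kept its call whichever sample was left out, but not in the fit of the 4 samples compared alone (adjusted p = 0.0814).

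Of those with body-wide or other roles 5 of 12 were higher in cKO at 4 h and 0 lower. Over all genes tested the shares were 7.66% and 7.87%. None of the 12 had an unadjusted p below 0.05 and a lower value, which 15.7% of the 51 members had. The share of all genes was not counted by that rule. Trim59 had 7.05 and 1.72 in WT and 37.2 and 25.6 in cKO (3.10, SE 0.62, adjusted p = 0.0125). Trim62 had 9.49 and 12.9 against 18.7 and 34.7 (log2 fold change 1.20, SE 0.32, adjusted p = 0.0346). Trim16, a regulator of the response to damaged lysosomes and oxidative stress, had 27.8 and 23.3 against 45.4 and 41.1 (0.76, SE 0.19, adjusted p = 0.0263). Trim7 and Trim29 were listed at 0 in both WT samples and at 3.06 and 1.997, and 2.63 and 1.98, in cKO (adjusted p = 0.00253 and 0.00318), and their calls held whichever sample was left out, though not in the fit of the 4 samples compared alone. All 5 had also been among those that fell with stimulation in WT, and since both comparisons use the WT samples of 4 h, the values of each are given side by side and no more is read from their coincidence. Trim59 lost its call without either cKO sample of 4 h (adjusted p up to 0.0876), Trim16 in 4 of the 8 fits (up to 0.113, those without cKO replicate 4 of 0 h, WT replicate 2 or either cKO sample of 4 h), and Trim62 in 6 of them (up to 0.144, with the call kept without WT replicate 2 or cKO replicate 3 of 4 h).

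**Figure D3:**
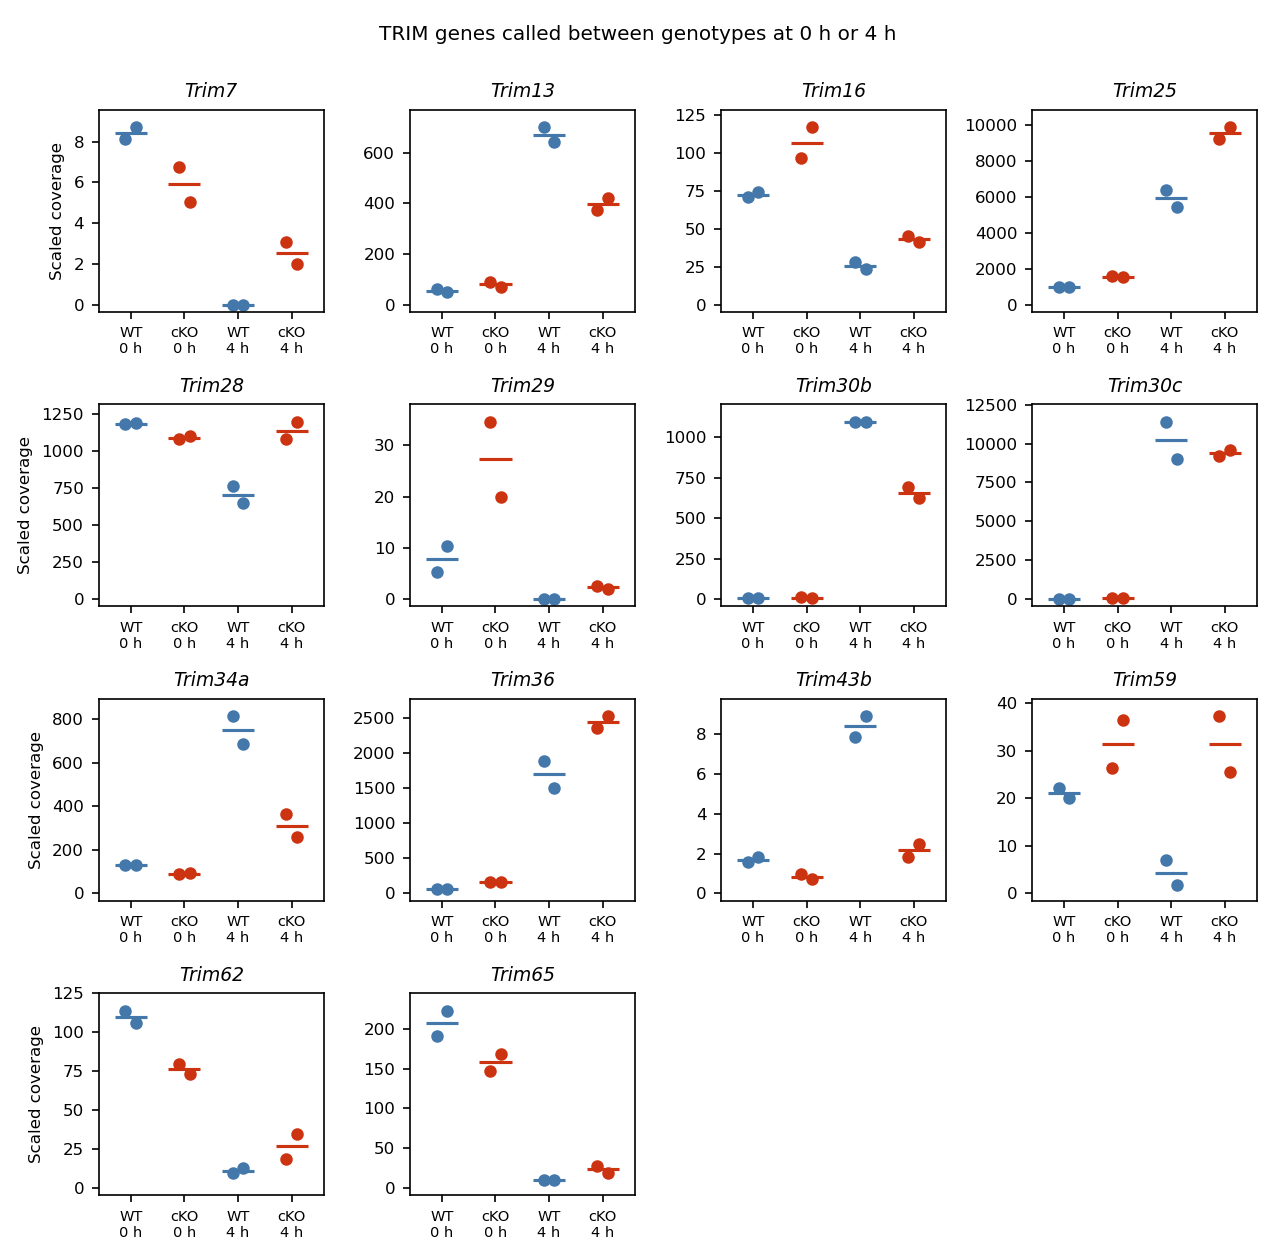
Scaled coverage (vertical axes from 0, 1 scale per gene) of the 14 TRIM genes called between genotypes at 0 h or 4 h, in WT (blue) and cKO (red) at 0 h and 4 h. Points are the 2 samples of a group and bars their mean. Trim25 is higher in cKO at both times, Trim28 and Trim59 are lower in WT at 4 h than in the other 3 groups, and Trim34a, Trim30b, Trim13 and Trim43b have higher values in WT than in cKO at 4 h.

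The 4 members that were lower in cKO at 4 h were 2 of the 10 in the block on chromosome 7, Trim13 of the 17 known from sensing, where 2 others (Trim25 and Trim65) were higher, and Trim43b. Trim34a had 812 and 686 in WT against 363 and 257 in cKO, which is 2.44-fold lower (-1.29, SE 0.17, adjusted p = 0.00267), and the call held whichever sample was left out. Its near copy Trim34b had 81.6 and 63.7 against 25.4 and 52.8 (-0.97, SE 0.45, adjusted p = 0.17) and was not called, and reads of one can be counted for the other. Trim30b had 1096 in both WT samples and 691 and 627 in cKO, or 1.67-fold lower (-0.74, SE 0.18, adjusted p = 0.0262). Trim13 had 700 and 642 against 376 and 421, or 1.69-fold lower (-0.75, SE 0.16, adjusted p = 0.017). Trim43b, of a family known from the early embryo, had 7.87 and 8.89 against 1.85 and 2.50 (-1.91, SE 0.56, adjusted p = 0.047). On the deposited scale the log2 fold changes of Trim30b, Trim13 and Trim43b were -0.38, -0.39 and -1.54 and none was called. Each of these calls was also lost without single samples, for Trim30b without any of the 4 samples of 4 h (adjusted p up to 0.159), for Trim13 without WT replicate 1 or either cKO sample of 4 h (up to 0.105), and for Trim43b without any sample of 4 h or either cKO sample of 0 h (up to 0.125).

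Of the 4 Trim30 genes Trim30b was thus the 1 called between genotypes at 4 h. Trim30a had 16719 and 14623 in WT and 11254 and 10533 in cKO (-0.52, SE 0.12, adjusted p = 0.0181), below the limit on the fold change, and -0.16 on the deposited scale. For Trim30c and Trim30d the log2 fold changes of -0.11 and -0.36 (SE 0.12 and 0.14, adjusted p = 0.569 and 0.108) became 0.25 and 0.00 on the deposited scale, so that their direction depends on the scaling. Of the block as a whole, 0 of 10 members were higher and 2 lower at 4 h (7.66% and 7.87% of all genes). Its median log2 fold change was -0.38 beside -0.01 over all genes, and 0 of its members had an unadjusted p below 0.05 with a higher value. By that last rule 29.4% of the 51 members were higher and 15.7% lower. The share of all genes was not counted by it, so the 0 is only a description. Trim21 was 1.21-fold higher in cKO (0.28, SE 0.08, adjusted p = 0.0403), with 3560 and 3499 in WT and 4291 and 4273 in cKO, and Trim26 was at the fold limit with 2092 and 1825 against 2927 and 2923 (0.58, SE 0.09, adjusted p = 0.00562). Trim36, called at 0 h, had 1889 and 1505 against 2351 and 2523 (0.53, SE 0.12, adjusted p = 0.0195). These 3 were called higher on the deposited scale. Trim26 was also called with equal sums, with quantile normalization and in the fit of the 4 samples compared alone, and Trim36 with equal sums.

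**Figure D4:**
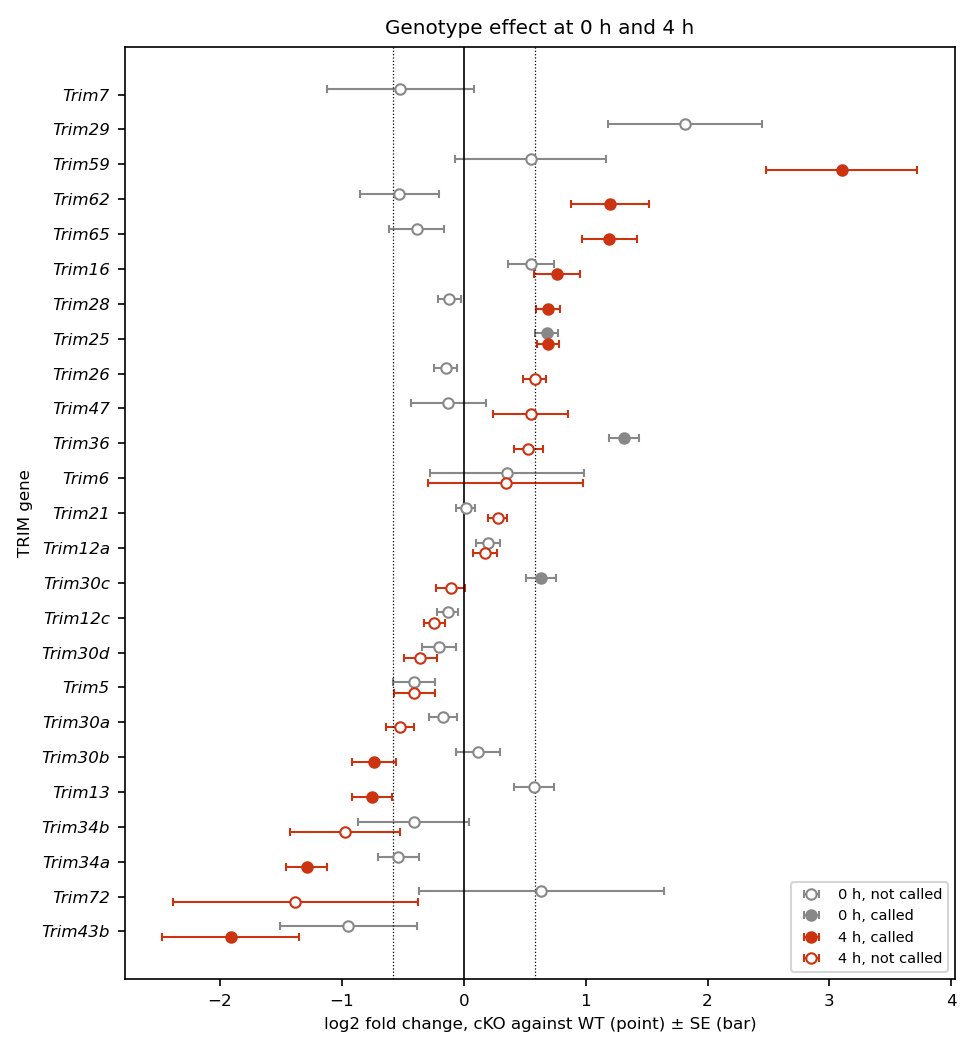
Genotype effect (log2 fold change, cKO over WT) at 0 h (grey) and 4 h (red) with bars of ± 1 SE for the 25 named TRIM genes, ordered by the change at 4 h. Filled points were called, and dotted lines mark a 1.5-fold change. Trim7 and Trim29 have no point at 4 h because WT was listed at 0. The points of Trim25 at both times lie close together, while those of Trim28, Trim65, Trim13, Trim26 and Trim36 lie apart.

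Whether the effect of genotype differed between 0 h and 4 h was tested as an interaction, which is the same as asking whether the response to stimulation differed between genotypes. It was called at an adjusted p below 0.05 for 7 members, with a more positive effect in cKO at 4 h than at 0 h for 4 and a less positive one for 3, against 2.76% and 4.28% of all genes tested. The 4 were Trim7 (adjusted p = 0.022, with WT at 0 at 4 h), Trim26 (0.73, SE 0.13, adjusted p = 0.0275), Trim28 (0.81, SE 0.13, adjusted p = 0.0226) and Trim65 (1.58, SE 0.32, adjusted p = 0.035). In WT Trim28 fell with stimulation, while in cKO it went from 1081 and 1103 to 1079 and 1198 on the median scale (0.06, SE 0.09, adjusted p = 0.618). Under each of the other scalings Trim28 was called lower with stimulation in cKO as well. There its log2 fold changes were -1.14 (deposited), -1.18 (equal sums) and -0.96 (quantile normalization), beside -2.22, -2.17 and -1.77 in WT. Trim65 fell in both genotypes, by 20.3-fold in WT and 6.81-fold in cKO, and Trim26 rose in both, by 6.42-fold and 10.6-fold.

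The 3 with the smaller response in cKO were Trim13 (-1.33, SE 0.23, adjusted p = 0.0259), Trim36 (-0.78, SE 0.17, adjusted p = 0.0408) and Trim30c (-0.74, SE 0.17, adjusted p = 0.04999). Trim13 was 12.5-fold higher at 4 h than at 0 h in WT and 4.96-fold in cKO, with 90.7 and 70.6 at 0 h and 376 and 421 at 4 h in the latter. Trim36 was 25.4-fold and 14.7-fold higher, and its scaled coverage was higher in cKO than in WT at 0 h and at 4 h. All but Trim30c were called under each of the 4 scalings, which makes 4 and 2 members against 2.25% and 1.35% of all genes. Trim25 had an interaction of 0.01 (SE 0.13, adjusted p = 0.977). None of the 7 was called without WT replicate 1 of 0 h, either cKO sample of 0 h or either cKO sample of 4 h, 1 was called without WT replicate 2 of 0 h, and 7 and 8 members were called without WT replicate 1 and 2 of 4 h, of which 5 and 6 belong to the 7. A replicate block left 4 of the 7 (without Trim7, Trim36 and Trim65), a prior variance without trend left Trim7 alone, and without the filter on low values Trim30c, Trim36 and Trim65 were lost and Trim8 was added. For Trim59 and Trim62, whose log2 fold changes between genotypes at 0 h and 4 h were 0.55 and 3.10, and -0.53 and 1.20, the interaction was not called (adjusted p = 0.129 and 0.0684).

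TRIM proteins that go by other symbols were looked at beside the members. Pml, the organiser of PML nuclear bodies, rose in WT from 273 and 303 to 3816 and 3087 (3.58, SE 0.11), Mefv, which encodes pyrin, from 162 and 165 to 7495 and 6140 (5.37, SE 0.12), and Mid1, a microtubule-binding ligase, from 39.4 and 84.7 to 416 and 691 (3.21, SE 0.50). These 3 of 4 rose in cKO as well, under every scaling in both genotypes (11.6% of all genes in WT and 12.7% in cKO). Between genotypes 0 were higher at either time, while Mefv was called lower in cKO at 0 h on the median scale (-0.59, SE 0.12, adjusted p = 0.0255). Of all genes 3.41% were higher and 2.97% lower at 0 h, and 7.66% and 7.87% at 4 h. Mid2, with 1.44 and 0.735 in WT at 4 h, was listed at 0 in both cKO samples of 4 h. Under every scaling it was called lower in cKO than in WT at 4 h (2.95% of all genes), and lower with stimulation in cKO (20% of all genes). Its values lie close to the lowest level tested, and no fold is given against a group at 0.

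Of 16 partners and targets of TRIM ligases in sensing 9 rose in WT and 9 in cKO under every scaling, and 1 fell in each. Of all genes tested 11.6% rose in WT and 12.7% in cKO by that rule, and 20% fell in each. Isg15, a ubiquitin-like modifier, went from 24.0 and 24.7 to 20658 and 22602 in WT (9.79, SE 0.11), and Irf7, the interferon regulatory factor, from 147 and 182 to 17787 and 14486 (6.62, SE 0.13). Ddx58, which encodes the Trim25 target RIG-I, rose from 285 and 351 to 4848 and 4219 (3.84, SE 0.13), while Mavs, the adaptor downstream of RIG-I, fell 3.32-fold from 486 and 512 to 152 and 149. Between genotypes 1 of the 16 was higher and 1 lower at each time. Of all genes 3.41% were higher and 2.97% lower at 0 h, and 7.66% and 7.87% at 4 h. The higher one was Ikbkg (NEMO), with 418 and 481 in WT against 686 and 757 in cKO at 0 h (0.68, SE 0.10, adjusted p = 0.0104) and 426 and 385 against 850 and 910 at 4 h (1.12, SE 0.10, adjusted p = 0.000933). Tmem173 (STING) was the 1 called lower at each time, with 2399 and 3113 against 1500 and 1323 at 4 h (-0.96, SE 0.13, adjusted p = 0.00293), a call that held under every scaling at 4 h and not at 0 h. Irf7 was the 1 with an interaction (0.88, SE 0.18, adjusted p = 0.0378).

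NUDT21 binds UGUA in the RNA, so the annotated 3'UTR of the transcript with the longest coding sequence of each member (GENCODE M21, GRCm38) was searched for TGTA. A 3'UTR was annotated for 49 of the 51 tested members, with a median length of 1063 bases and a median of 4 such sites, and 83.7% of them held at least 1. Over the 13343 tested genes with an annotated 3'UTR the median was 903 bases with 4 sites, and 85.2% held 1. The 8 members higher in cKO at 4 h had 3'UTRs of 173 to 3572 bases with a median of 3 sites, the 4 lower ones had 187 to 2198 bases with a median of 6, and the 37 others with a 3'UTR had 33 to 6812 bases with a median of 4. Trim25, with 3572 bases and 16 sites, had the longest of the 8, and Trim28, with 173 bases and 1 site, the shortest. Which poly(A) site each transcript used was not analysed here.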

How the data were processed

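RNA-seq of BMDMs was analysed for 8 samples, 2 each of WT and cKO at 0 h and 4 h, grouped by their titles. The labels name the stimulation for the 0 h samples as well, and these were taken as unstimulated from their titles and the study's methods. The authors aligned the reads to GRCm38 with HISAT2 2.2.1, quantified RefSeq genes with StringTie 2.1.7 and deposited, in 1 table per time, the coverage signal of every gene, unscaled between samples. The unit is not named in the tables and was read from the values. For single-transcript genes of low coverage, value times annotated length was a whole number within 0.05 for 29.9% to 37.2% of genes per sample, where chance gives 10%. Numbers of reads are unknown, and counting intervals could not be had. Columns with the authors' own fold changes and p-values were not used, and 0 columns of sample values were left unused.

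Each sample was scaled to the same median log2 value of the tested genes, because coverage carries depth and the median coverage differed between samples. Genes that reached a mean coverage of 0.5 were fitted with limma 3.58.1 in R 4.3.3 (1 mean per group, prior variance trended on level, shared over all 8 samples because each group has 2) on log2(scaled coverage + 0.1). A pseudocount understates changes of low genes. The study's methods give a fold change above 1.5 with p below 0.05 and no scaling, and calls by that rule were counted beside the adjusted ones. The fit was tested on simulated coverage.

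The members were fixed by name, but the family, its role lists, the partners and the markers were chosen with earlier results of these data known. Named are members called between genotypes or in the interaction, the 10 largest changes among those called in WT with stimulation, the block on chromosome 7, the 5 highest by mean and Nudt21. Other members named were chosen after their values were seen, as was the count over 4 scalings. The WT samples are numbered 1 and 2 and the cKO samples 3 and 4 at each time, and the closing section treats this numbering. Positions and 3'UTRs came from GENCODE M21, which held 20726 of the 21080 symbols, promoters from RefSeq (GRCm38.p6), and near-identical stretches (at least 100 bases at 98%) from blastn 2.17.0.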

Additional observations from a re-analysis of the deposited data

Results flagged for a closer look

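For 7 TRIM genes the effect of genotype at 4 h differed from that at 0 h by the interaction test of limma (Benjamini-Hochberg adjusted p below 0.05). The difference of the log2 fold changes, 4 h minus 0 h, was 1.58 for Trim65, 0.81 for Trim28, 0.73 for Trim26, -0.74 for Trim30c, -0.78 for Trim36 and -1.33 for Trim13. For Trim7, listed at 0 in both WT samples of 4 h, the adjusted p was 0.022 and no size is given. In addition, both cKO samples of Trim8 and of Trim62 lay below both WT samples at 0 h and above them at 4 h on scaled coverage. The difference was 0.44 for Trim8 and 1.73 for Trim62, neither of which was called by the interaction test. Trim7, Trim26, Trim28 and Trim65 had the same order, and Trim13 the reverse. The share of all genes with such an order was not counted. Groups without overlap are common (56.8% of all genes at 0 h), so the order is only a description.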

How the results depend on the processing

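Beside 20 members called higher and 14 lower with stimulation in WT, 12 and 25 were called on the deposited scale and 13 and 25 with equal sums. In cKO, beside 17 and 12, it was 11 and 23 on both. Calls in all 4 scalings came to 12 higher in WT and 11 in cKO. Between genotypes at 4 h, beside 8 and 4, the deposited scale gave 16 higher and 1 lower, equal sums and quantile normalization 2 lower, a prior variance without trend 2 lower, all 4 scalings together 1 lower, and a fit of the 4 samples compared 4 higher. For the interaction, beside 4 and 3, there was 1 less positive member without the filter on low values. Without the trend there were 1 more positive and 0 less positive, and 370 of all genes were called instead of 1147. With the trend 5 members (9.8%) were less positive at an unadjusted p below 0.05 of the limma fit, a share not counted over all genes. Where no share of all genes is given for a setting, the counts of members are only a description.

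Leaving out 1 sample at a time gave 0 to 3 members higher and 0 lower between genotypes at 0 h, 6 to 10 and 1 to 4 at 4 h, 0 to 6 and 0 to 3 for the interaction, 20 to 21 and 11 to 17 with stimulation in WT, and 17 to 18 and 9 to 12 in cKO. Of all genes 111 to 1181 were called between genotypes at 0 h, 1365 to 2914 at 4 h, 0 to 1868 for the interaction, 8229 to 9194 with stimulation in WT and 7523 to 8936 in cKO. A lone sample left in its group is assumed to vary like the other groups.

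Between the median scale and any other scaling the direction turned for 5 members with stimulation in WT (Trim5, Trim6, Trim17, Trim39 and Trim66), 9 in cKO, 5 between genotypes at 0 h, 12 at 4 h and 11 in the interaction, 0 of which were called on the median scale. Of the named members these included, between genotypes at 4 h, Trim12c (0.12 on the deposited scale), Trim30d (0.0045 there), Trim30c (0.25 there, 0.0395 with equal sums, 0.0324 with quantile normalization and -0.2829 to 0.0649 leaving out 1 sample) and, with 1 sample left out, Trim6 (-0.6767 to 1.3617). At 0 h, leaving out 1 sample, Trim30b ran from -0.124 to 0.3568, Trim30d from -0.4174 to 0.014 and Trim34b from -0.8274 to 0.0056. The cause was not tested.

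Samples with the same number at 0 h and 4 h deviated from their group means with a correlation of 0.05 in WT and 0.06 in cKO over 12024 genes. The sources do not state whether the same pools of cells were used at both times, and so small a correlation does not show that they were not. The main fit treated the samples as unpaired. A replicate block left 2 more positive members and 601 of all genes with an interaction and moved no other count by over 1.5 times.

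The test for counts was not run, since the values are coverage, and the fit of 4 samples alone does not exist for the interaction. A pseudocount of 1 and a minimum mean of 1 moved no count by over 1.5 times. With 2 samples per group the spread between samples is itself poorly known, and without numbers of reads the precision of genes near the minimum, such as Trim7, Trim29, Trim43b and Trim72, is unknown.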
